A study of Homo sapiens with 6 samples.

Results

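Cells of a human kidney cell line that had been transfected with a construct labelled hIMP1 Dmut were compared with cells that had received an empty vector, labelled mock. Each of the 2 groups holds 2 arrays, so the comparison rests on 4 of the 6 arrays of the series. They were chosen by the sample descriptions, and the leading number of each sample title, 1 or 2, gave the replicate number. The other 2 arrays, of cells transfected with hIMP1 wt, entered the same fit and are used where the constructs are set side by side. What Dmut changes in the protein, the name of the line, the time after transfection and the origin of the replicates are not given in the labels. The p-values therefore cover only how far these arrays differ among themselves, a spread that may be technical.

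IMP1 is the protein made from IGF2BP1. It binds mRNAs through KH and RRM domains, packs them into cytoplasmic granules, and is known for regulating the localisation, translation and stability of transcripts such as ACTB and MYC. It is an oncofetal protein, abundant in embryonic tissue and in many transformed lines. The comparison asks which transcripts differ in total RNA once the Dmut construct is introduced.

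Each array reported 54675 probe set intensities on a linear scale, and array medians ran from 30.6 to 33.7 with hIMP1 Dmut and from 28.6 to 32.6 with mock. Changes are differences of log2(intensity + 9.04), hIMP1 Dmut minus mock, given with the standard error of the fit. A change within a number sets the hIMP1 Dmut array against the mock array of the same number. Across 27307 probe sets the correlation of hIMP1 Dmut with mock was 0.977 within number 1 and 0.970 within number 2, against 0.964 between the hIMP1 Dmut arrays and 0.963 between the mock arrays. Of 15 markers of kidney epithelium and its development, 10 were measured, with summed intensities of 9056 and 8023 with hIMP1 Dmut and 8485 and 9484 with mock. The mesenchymal filament VIM, the keratin KRT18 and the nephric factors GATA3 and PAX8 were among them. CDH1, an epithelial cadherin, was dim, at 5.56 and 46.0 with hIMP1 Dmut and 16.7 and 54.0 with mock. Of the markers of other cell types, 3 of 8 for blood cells, 1 of 7 for fibroblasts and 1 of 6 for endothelium passed the filter on low values. The 3 blood cell markers summed to 128 and 170.5 with hIMP1 Dmut and to 141 and 90.4 with mock, and their part in the results was not tested.

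HSPA6 rose with hIMP1 Dmut, and it was the only gene past the threshold. It encodes an HSP70 chaperone that cells make under heat or proteotoxic stress and hardly at all otherwise. At its brighter probe set the intensities were 1033 and 824 with hIMP1 Dmut, against 28.6 and 3.02 with mock. The lowest hIMP1 Dmut array thus lay far above the highest mock array, and both mock values were below the array medians. The log2 change was 5.45 ± 0.44, which is 43.7-fold with this offset (limma, adjusted p = 0.00292), with 4.79 within number 1 and 6.11 within number 2. The second probe set of HSPA6 gave 582 and 535 with hIMP1 Dmut and 13.6 and 2.57 with mock, a log2 change of 5.13 ± 0.35 (limma, adjusted p = 0.00102). These 2 probe sets were the ones called higher, 0.00732% of those tested, and 0 (0%) were called lower. Because mock lay near the bottom of the scale, the fold moves with the offset: at the brighter probe set the log2 change came to 6.14 when the offset was the 10th percentile of the intensities and to 4.41 when it was their median. The call at either probe set was lost when 1 of the hIMP1 Dmut arrays was left out (limma, adjusted p between 0.172 and 0.377, with the remaining array taken to vary like the other groups) or without the intensity trend of the variance prior (0.153 and 0.0502). The sequence of HSPA6 is close to that of its neighbour HSPA7, and the probes could read both. With 2 arrays against 2, an exact permutation test cannot give a two-sided p under 0.333.

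**Figure D1:**
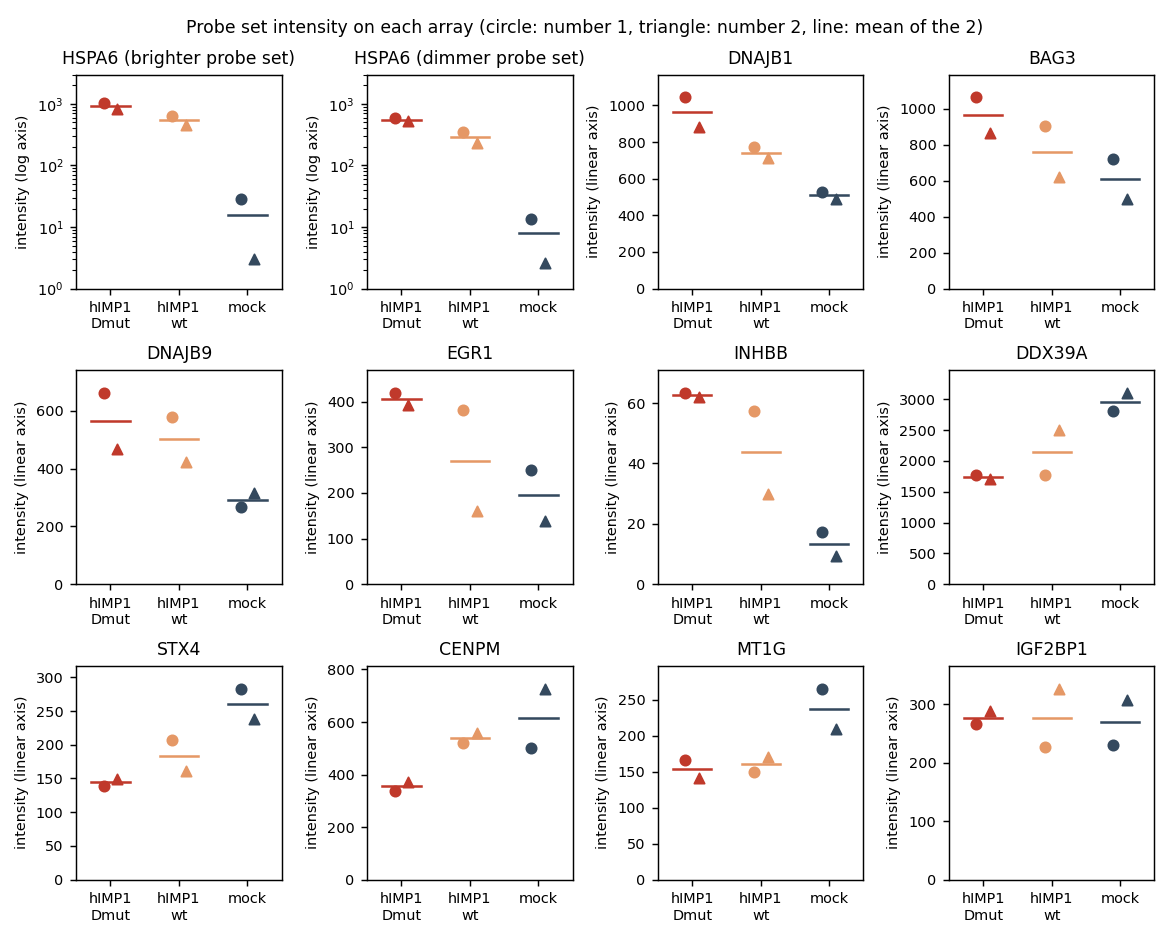
Intensity of 12 probe sets on each array of hIMP1 Dmut (left), hIMP1 wt (middle) and mock (right), with circles for arrays numbered 1, triangles for arrays numbered 2 and a line at the mean of the 2. The vertical axis is logarithmic for the 2 probe sets of HSPA6 and linear from 0 for the others. HSPA6 stood at 824 or more on the hIMP1 Dmut arrays and at 28.6 or less on the mock arrays at its brighter probe set.

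Heat shock factors bind inverted repeats of a short element upstream of chaperone genes, so the bases before the start of HSPA6 and of DNAJB1, which follows it among the heat shock genes, are shown. They are the 250 bases upstream of a start that RefSeq lists (GRCh38.p14), read in the direction of the gene. The windows are chr1:161524290-161524539 on the plus strand for HSPA6 and chr19:14518398-14518647 on the minus strand for DNAJB1. Capitals mark matches to GAANNTTC or TTCNNGAA, each of which is its own reverse complement and so reads alike on both strands.
HSPA6: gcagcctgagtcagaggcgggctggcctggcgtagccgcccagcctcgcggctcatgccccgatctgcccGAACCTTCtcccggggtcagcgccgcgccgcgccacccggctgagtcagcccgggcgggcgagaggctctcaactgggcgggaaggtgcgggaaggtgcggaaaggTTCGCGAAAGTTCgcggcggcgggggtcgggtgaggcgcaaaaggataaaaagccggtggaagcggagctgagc
DNAJB1: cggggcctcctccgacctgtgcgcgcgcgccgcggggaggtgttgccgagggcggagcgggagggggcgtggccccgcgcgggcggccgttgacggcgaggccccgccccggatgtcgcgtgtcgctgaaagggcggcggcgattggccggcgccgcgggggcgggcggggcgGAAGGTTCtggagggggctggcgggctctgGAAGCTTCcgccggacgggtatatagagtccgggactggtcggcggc
HSPA6 had 3 matches between 62 and 180 bases before the start, of which TTCGCGAA and GAAAGTTC overlap. DNAJB1 had 2 matches, GAAGGTTC and GAAGCTTC, between 40 and 77 bases before 1 of its 3 listed starts. That window is shown because it held the most matches, and the windows of the other DNAJB1 starts held 0. Of all 35116 such windows, 11.6% held either motif (5.78% GAANNTTC and 6.62% TTCNNGAA), against 37.1% of the 35 windows of the measured heat shock genes. Counted by gene at any listed start, 13 of 22 heat shock genes held one (59.1%), against 12.1% of all measured genes with a window, and these 13 include genes that were lower or that overlapped between the groups. A match describes the letters of the window and shows no binding.

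The remaining heat shock genes did not follow HSPA6 as a group. Of 30 listed, 24 were measured, with 14 higher and 10 lower, and HSPA6 was the 1 called. Both hIMP1 Dmut arrays lay above both mock arrays for HSPA6, DNAJB1 and BAG3, and below them for STIP1, FKBP4 and PTGES3. That is 12.5% of the list in each direction, against 11.2% of all 12269 genes above and 12% below. The list median was 0.048, with 0.20 within number 1 and -0.11 within number 2, and it lay between -0.12 without hIMP1 Dmut replicate 1 and 0.24 when replicate 2 of that group was left out. HSPA1A and HSPA1B, read only by probe sets annotated to several genes, have no value here.

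DNAJB1, the HSP40 partner that delivers clients to HSP70, had intensities of 1043 and 884 with hIMP1 Dmut and 529.7 and 489 with mock. The groups were well separated, and the change was 0.90 ± 0.18, nearly the same within number 1 (0.97) and number 2 (0.84). Its other probe set gave 857 and 559 with hIMP1 Dmut and 324 and 286 with mock, a change of 1.16. The unadjusted p of the brighter probe set was 5.3e-04, which did not pass after adjustment over all probe sets (limma, adjusted p = 1). BAG3, a nucleotide exchange factor of HSP70 in selective autophagy, gave 1064 and 867 with hIMP1 Dmut and 722 and 499.7 with mock (0.67 ± 0.25). HSPH1, another exchange factor, overlapped, at 1644 and 1210.1 with hIMP1 Dmut and 1232 and 960.3 with mock (0.37 ± 0.20). A pair of HSP90 cochaperones lay on the other side. STIP1, which bridges HSP70 and HSP90, had 1311 and 1217 with hIMP1 Dmut and 1609 and 1560.0 with mock (-0.32 ± 0.17). Its other probe set overlapped (-0.27) and was 0.12 within number 1. FKBP4, an immunophilin of steroid receptor complexes, had 1434 and 1456 with hIMP1 Dmut and 1759 and 1847 with mock (-0.32 ± 0.21). Among 30 other HSP70 and J-domain genes 16 lay above mock and 14 below, and the median was 0.013. HSPA13, an HSP70 of the endoplasmic reticulum (ER), came first by moderated statistic (0.43 ± 0.21), and DNAJA4 had the largest change, with groups that overlapped (0.54 ± 0.50).

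The transfected gene itself showed no difference past the threshold. IGF2BP1 had intensities of 266 and 288 with hIMP1 Dmut and 231 and 307 with mock at its brighter probe set, and the mock values enclosed those of hIMP1 Dmut. The change was 0.054 ± 0.25, with 0.20 and -0.091 within numbers 1 and 2, and its sign turned under median scaling (-0.016). At the other probe set the values were 248 and 150.5 with hIMP1 Dmut and 188 and 93.2 with mock (0.51 ± 0.39). Which part of the transcript either probe set reads, and whether the construct carries it, is not given, so the construct could be present and unseen. The paralogues IGF2BP2 (-0.13 ± 0.24) and IGF2BP3 (0.077 ± 0.16) were also close to mock, and each has another probe set of the opposite sign.

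Most changes did not recur within both numbers. Across 12269 genes the change had the same sign within number 1 and number 2 for 5576 (45.4%). The correlation of the 2 sets of changes, which share no array, was -0.073 by Pearson and -0.11 by Spearman over these genes, which are not independent replicates. Within number 1, 76 genes were higher and 152 lower by 1 or more on the log2 scale, and within number 2 the counts were 276 and 95. Within both numbers 14 genes were higher by 1 or more (0.114% of the genes) and 2 were lower (0.0163%), while 5 were higher within number 1 and lower within number 2 by that size, and 13 the other way round. Groups that did not overlap were seen for 1378 genes upwards (11.2%) and 1468 downwards (12%). With arrays scaled to a common median those counts became 897 and 1705, and the median change of all genes was -0.075, against -0.0061 as deposited. At an unadjusted p under 0.05 there were 387 probe sets, 231 higher and 156 lower (limma), against 1365 that uniform p-values would give.

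**Figure D2:**
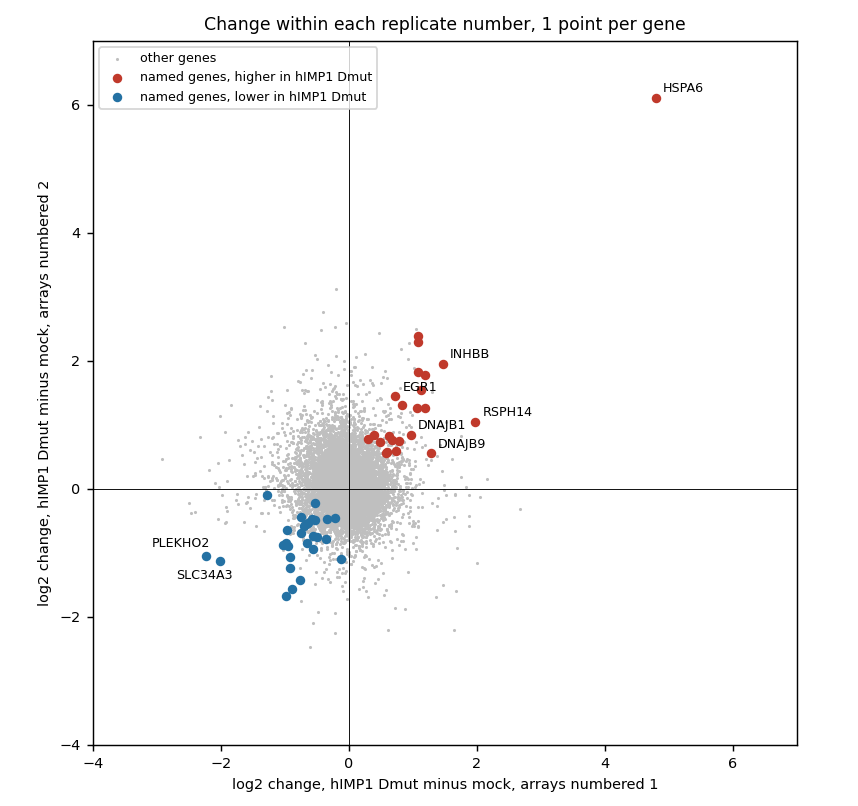
Log2 change, hIMP1 Dmut minus mock, within the arrays numbered 1 (horizontal) and numbered 2 (vertical), 1 point per gene for 12269 genes. Red points are named genes higher with hIMP1 Dmut, blue points named genes lower, and grey points the other genes, with HSPA6 alone at 4.79 and 6.11.

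The 14 genes higher by 1 or more within both numbers included HSPA6 and INHBB. INHBB encodes the beta B subunit of activin and inhibin. Its intensities were 63.4 and 62.0 with hIMP1 Dmut and 17.2 and 9.29 with mock, a change of 1.71 ± 0.41 with a 95% interval of 0.81 to 2.62. The hIMP1 Dmut arrays agreed closely, and both mock arrays were under the array medians. KLHL25, a substrate adaptor of a cullin ubiquitin ligase, had 69.3 and 61.5 with hIMP1 Dmut and 25.3 and 20.5 with mock (1.22 ± 0.34). NKX6-3, a homeodomain transcription factor, had 79.6 and 87.7 with hIMP1 Dmut and 29.8 and 19.3 with mock (1.48 ± 0.38), and its second probe set went the same way (0.82). The long non-coding transcripts TEX26-AS1 (1.73), PARD6G-AS1 (1.45) and LINC00523 (1.16) were in the set, as were the homeobox gene ANHX (1.68) and RSPH14, a homologue of a radial spoke protein of cilia (1.51). SEZ6L2 (1.33) had another probe set of the opposite sign (-0.70). The other 4 were BHLHA15 (1.41, with groups that overlapped), FCRL5 (1.45), TMEM105 (1.77) and TP53I11 (1.27), named because they complete the 14. Apart from HSPA6, none of these genes passed the threshold (limma, adjusted p = 1 for INHBB).

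Among other bright transcripts, whose values depend less on the offset, the changes were smaller. DNAJB9, an ER-resident J-domain cochaperone, had 661 and 468 with hIMP1 Dmut and 268 and 316 with mock (0.92 ± 0.24), and all 3 of its probe sets kept the groups apart. EGR1, an immediate early transcription factor, had 419 and 393 with hIMP1 Dmut and 250.4 and 139 with mock (1.08 ± 0.38), with 0.90 and 0.52 at its other probe sets. C11orf96 had 438 and 311 with hIMP1 Dmut and 244 and 120.4 with mock (1.06 ± 0.38). Others chosen by the smaller of their changes within a number, among genes whose groups did not overlap, were FJX1, a secreted homologue of the fly gene four-jointed (0.72 ± 0.29), the zinc finger gene ZNF136 (0.71 ± 0.28) and LINC00520 (0.66 ± 0.23). PLIN3, a lipid droplet coat protein, had 213 and 203 with hIMP1 Dmut and 139 and 134 with mock, with little spread in either group (0.58 ± 0.23). ZNF236 had a like difference (0.57 ± 0.26). Genes for which every kept probe set separated the groups upwards also included MYT1, a neural zinc finger factor (0.76 ± 0.41), TAGLN, an actin-binding protein of smooth muscle (0.61 ± 0.37, and 1.44 at its other probe set), PLEKHM3 (0.60 ± 0.25) and the carbonic anhydrase gene CA13 (0.53 ± 0.25). Of 6190 genes with at least 2 kept probe sets, 87 met this condition upwards and 65 downwards.

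On the lower side, DDX39A encodes an RNA helicase of splicing and mRNA export. Its intensities were 1775 and 1710.3 with hIMP1 Dmut and 2812 and 3104 with mock, a change of -0.76 ± 0.19 with a 95% interval of -1.19 to -0.33. The hIMP1 Dmut values were close together and well under both mock values. Like the other genes of this paragraph, DDX39A was chosen because its groups did not overlap, so that separation is no further evidence. STX4, a SNARE protein of the plasma membrane, had 139 and 149 with hIMP1 Dmut and 283 and 239 with mock (-0.81 ± 0.23), with a smaller change at its other probe set (-0.19). CENPM, a centromere protein, had 338 and 373 with hIMP1 Dmut and 500.4 and 727 with mock (-0.75 ± 0.22). RILPL1, which belongs to the Rab effector family of RILP (-0.73 ± 0.24), the homeobox gene HOXC10 (-0.63 ± 0.23), the histone gene H2BC6 (-0.64 ± 0.31), the metallothionein MT1G (-0.59 ± 0.23) and ZMYM1 (-0.51 ± 0.22) were lower within both numbers. MBOAT7, an acyltransferase of phosphatidylinositol (-0.65 ± 0.32), and the erythropoietin receptor EPOR (-0.62 ± 0.27) each had another probe set of the opposite sign. None of these passed the threshold (limma, adjusted p = 1 for DDX39A).

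The 2 genes lower by 1 or more within both numbers were SLC34A3 and PLEKHO2. SLC34A3, a sodium-phosphate cotransporter of the proximal tubule, had 84.7 and 99.5 with hIMP1 Dmut and 372 and 228 with mock (-1.57 ± 0.82). Of its hIMP1 wt arrays, at 266 and 16.4, 1 lay among the mock values and 1 below both hIMP1 Dmut values. PLEKHO2 had 12.8 and 41.8 with hIMP1 Dmut and 93.8 and 96.4 with mock (-1.64 ± 0.55). Other transcripts lower within both numbers were CBX7, a Polycomb chromobox protein (-1.08), EGFL7, a secreted factor of endothelium (-1.10), PTMS, or parathymosin (-0.93), C14orf93 (-0.96), STPG3 (-0.92), LINC01016 (-1.23) and UBE2D3-AS1 (-1.33). FAM174B (-0.996) had another probe set at 0.11. With every kept probe set lower, CD276, the immune checkpoint ligand B7-H3, had 299.9 and 397 with hIMP1 Dmut and 509 and 541 with mock (-0.59 ± 0.22). TEFM, the elongation factor of mitochondrial transcription, had 346 and 393 with hIMP1 Dmut and 519.6 and 551 with mock (-0.53 ± 0.19). FKBP8, ITPKB, STMN3, AK9, PRKCQ-AS1 and SRRD met the same condition, with changes from -0.69 (ITPKB) to -0.34 (SRRD).

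**Figure D3:**
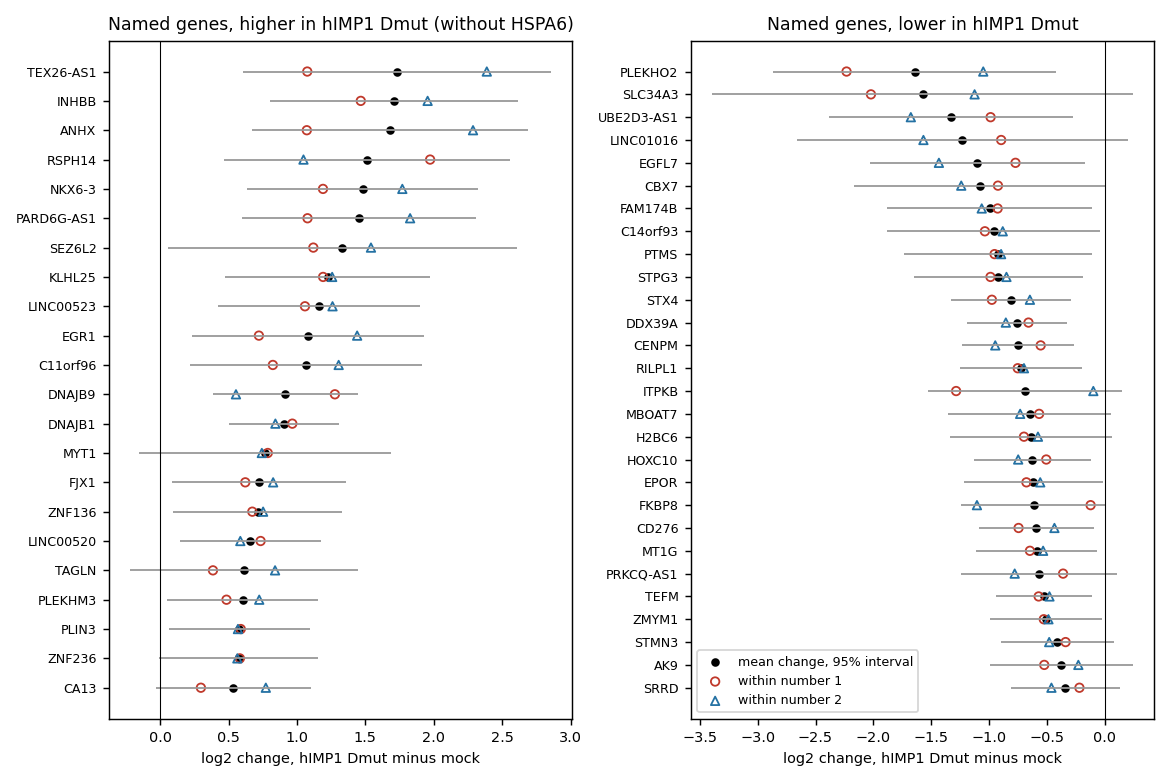
Log2 change, hIMP1 Dmut minus mock (horizontal), of the named genes higher with hIMP1 Dmut without HSPA6 (left) and lower with hIMP1 Dmut (right), as a black point with its 95% interval, and within number 1 (circle) and number 2 (triangle). The intervals are not adjusted for the number of genes.

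Genes of the unfolded protein response, by which the ER raises its folding and degradation capacity, lay above mock more often than below. Of 29 measured, 19 were higher and 10 lower, 0 were called, and 8 lay above both mock arrays (27.6%, against 11.2% of all genes) while 0 lay below. With arrays scaled to a common median 4 lay above and 1 below, where the shares of all genes were 7.32% and 13.9%. The median was 0.10, with 0.19 within number 1 and 0.032 within number 2, and lay between 0.043 without hIMP1 Dmut replicate 1 and 0.19 when replicate 2 of that group was left out. For hIMP1 wt minus the same mock arrays the list median was 0.20, and for hIMP1 Dmut minus hIMP1 wt it was -0.097. The 8 were DNAJB9, XBP1, EIF2AK3, SEL1L, EDEM1, DNAJC3, EDEM3 and DERL1. XBP1, a transcription factor of the response, had 1128 and 1188 with hIMP1 Dmut and 846 and 716 with mock (0.57 ± 0.20). EIF2AK3, the sensor kinase PERK, had 532 and 477 with hIMP1 Dmut and 373 and 279 with mock (0.63 ± 0.25). SEL1L, EDEM1, EDEM3 and DERL1 act in the disposal of misfolded ER proteins and differed by between 0.16 and 0.26. The chaperone HYOU1 overlapped, with 0.60 within number 1 and -0.044 within number 2. In the ATF4 list, which holds the amino acid response downstream of PERK, 17 genes were higher and 13 lower of 30, with none apart in either direction.

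**Figure D4:**
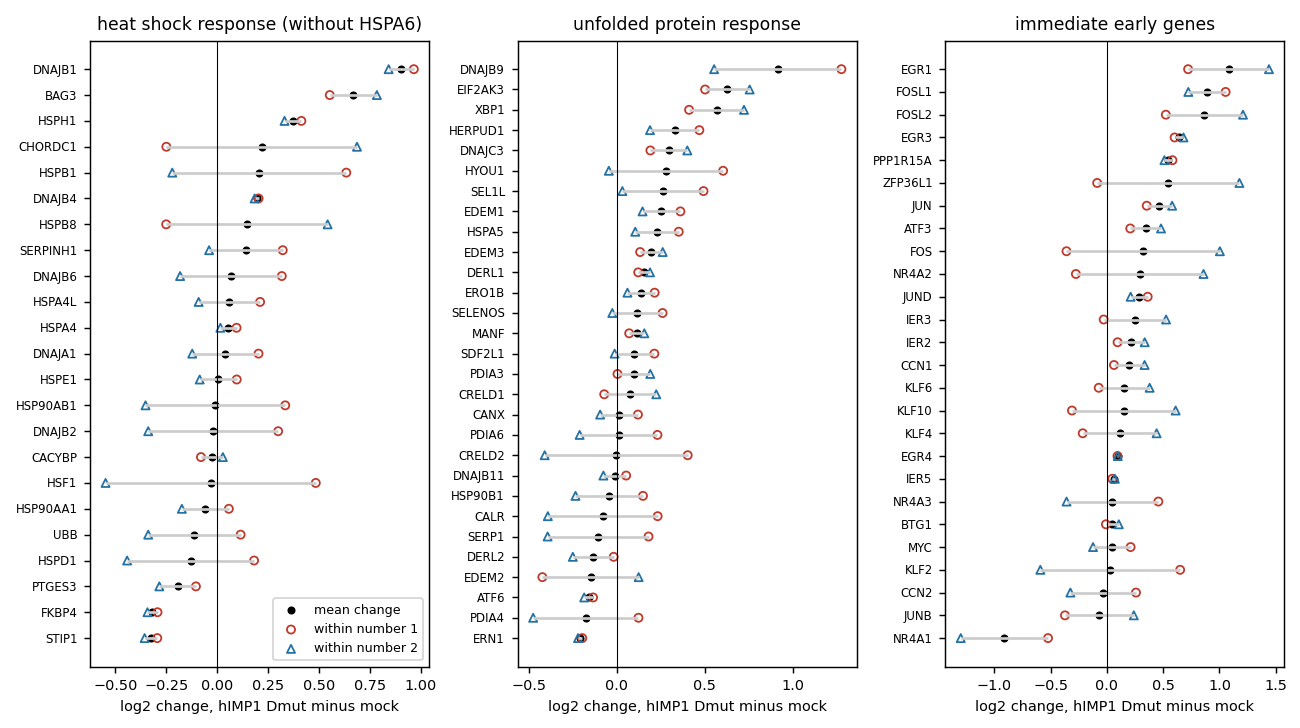
Log2 change, hIMP1 Dmut minus mock (horizontal), of each measured gene of the heat shock list without HSPA6 (left), the unfolded protein response list (middle) and the immediate early list (right), as the mean (black point) and within number 1 (circle) and number 2 (triangle). Grey lines join the changes within the 2 numbers, and DNAJB1, DNAJB9 and EGR1 stand at the top of their panels.

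Golgi genes also lay mostly above mock. Of 38 measured, 27 were higher and 11 lower, and 11 lay above both mock arrays (28.9%, against 11.2% of all genes) and 3 below (7.89%, against 12%). Median scaling gave 6 above and 5 below, against 7.32% and 13.9% of all genes. The median was 0.13, with 0.10 within number 1 and 0.13 within number 2, and lay between 0.058 without mock replicate 2 and 0.16 without hIMP1 Dmut replicate 2. FURIN, the proprotein convertase of the trans-Golgi, had 134 and 83.4 with hIMP1 Dmut and 78.9 and 46.0 with mock (0.73 ± 0.33). COG2, a subunit of the tethering complex of retrograde traffic, had 747 and 789 with hIMP1 Dmut and 627 and 586 with mock (0.34 ± 0.18), while the subunit COG8 (0.42) had a second probe set of the opposite sign (-0.23). The golgin GOLGA5 (0.29 ± 0.19) was higher, and YIF1A, of ER to Golgi transport, was lower (-0.39 ± 0.20). In the wider secretory list 32 of 48 genes were higher, but the median was 0.029, and -0.077 within number 2. The coat genes SEC24D (0.81 ± 0.41) and SEC23A (0.48 ± 0.22) and the retrieval receptor KDELR3 (0.40 ± 0.21) were above both mock arrays, and DAD1, of the oligosaccharyl transferase, was below them (-0.46 ± 0.20). The other probe set of SEC23A overlapped (0.066). Those of KDELR3 gave 3.9e-05, with groups that overlapped, and 0.11, above both mock arrays.

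Immediate early genes, which respond within minutes to growth factors and stress, were mostly above mock. Of 26 measured, 23 were higher and 3 lower, 6 lay above both mock arrays (23.1%, against 11.2% of all genes) and 1 below. The median was 0.21, with 0.095 within number 1 and 0.41 within number 2, and it lay between 0.089 without mock replicate 2 and 0.39 without mock replicate 1. FOSL1, an AP-1 subunit, had 51.6 and 37.8 with hIMP1 Dmut and 20.1 and 19.3 with mock (0.89 ± 0.40). FOSL2, another AP-1 subunit, had 151 and 106 with hIMP1 Dmut and 102 and 40.7 with mock (0.87 ± 0.41). JUND (0.29 ± 0.18) and EGR3 (0.64 ± 0.48) were also above both mock arrays, but the other probe sets of JUND overlapped (0.048 and 0.099). JUN overlapped at its brightest probe set, at 2503 and 1842 with hIMP1 Dmut and 1956 and 1229.6 with mock (0.47 ± 0.25). The other probe sets of JUN were above both mock arrays, with changes of 0.44, 0.91 and 0.31. The orphan receptor gene NR4A1 lay on the other side, at 33.4 and 22.9 with hIMP1 Dmut and 51.9 and 69.6 with mock (-0.91 ± 0.36). The 250 bases before the start of EGR1 (RefSeq, GRCh38.p14, chr5:138465229-138465478, plus strand) are shown because EGR1 had the largest change of the list and is a textbook target of serum response factor, which binds CArG boxes. Capitals mark 2 CArG boxes, which lie between 74 and 105 bases before the start. A CArG box was held by 1.16% of all windows and by 1 of the 22 windows of immediate early genes.
EGR1: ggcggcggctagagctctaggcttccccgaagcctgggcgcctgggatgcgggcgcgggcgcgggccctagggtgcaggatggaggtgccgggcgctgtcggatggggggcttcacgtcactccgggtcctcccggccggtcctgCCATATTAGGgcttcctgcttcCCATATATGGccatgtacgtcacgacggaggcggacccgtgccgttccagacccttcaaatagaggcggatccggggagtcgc
Feedback regulators of the MAPK pathway had a median of 0.29, with 13 higher and 4 lower of 17. The median was -0.0080 without mock replicate 2 and 0.44 without mock replicate 1. SPRY2, an inhibitor of receptor tyrosine kinase signalling, was the 1 member above both mock arrays (5.88%, against 11.2% of all genes). Its intensities were 214 and 219 with hIMP1 Dmut and 170.2 and 146 with mock (0.43 ± 0.23). The ETS factor ETV5 had 104 and 64.2 with hIMP1 Dmut and 65.9 and 13.1 with mock (1.16 ± 0.54), and its groups overlapped.

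Transcripts of mitochondrial function lay below mock more often than above. Of 66 nuclear-encoded subunits and factors of oxidative phosphorylation 57 were lower and 9 higher, and 16 lay below both mock arrays (24.2%, against 12% of all genes) and 2 above. Of 52 genes for mitochondrial ribosomal proteins 46 were lower and 6 higher, with 18 below both mock arrays (34.6%) and 0 above. With arrays scaled to a common median 13 of the 66 and 12 of the 52 lay below both mock arrays, against 13.9% of all genes. Under cyclic loess scaling these counts were 11 and 17, against 12.8% of all genes. The medians were -0.15 for oxidative phosphorylation and -0.13 for the ribosomal proteins. Within number 1 these medians were -0.051 and -0.031, and within number 2 they were -0.26 and -0.31. The first was -0.012 without mock replicate 2 and -0.27 without mock replicate 1. The second was -0.23 without hIMP1 Dmut replicate 1, and -0.054 when replicate 2 of that group was left out. UQCRC1, a core subunit of complex III, had 1608 and 1496 with hIMP1 Dmut and 1839.7 and 2460.3 with mock (-0.45 ± 0.23). MRPL12, of the large mitochondrial subunit, had 1481 and 1287 with hIMP1 Dmut and 1723 and 1636 with mock (-0.28 ± 0.17). MRPL11 was lower by a like amount (-0.34 ± 0.19). None of these genes was called.

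Proteasome and mitosis genes also lay mostly below mock, and oxidative and metal stress genes did so less clearly. Of all 12269 genes 6296 were lower in the mean. Of 31 proteasome genes 25 were lower and 6 higher, with 8 below both mock arrays (25.8%, against 12% of all genes) and a median of -0.12. That median was 0.036 within number 1 and -0.26 within number 2, with -0.031 without mock replicate 2 and -0.21 without mock replicate 1. With arrays scaled to a common median 3 of the 31 lay below both mock arrays, against 13.9% of all genes under that scaling. PSMA7, a subunit of the core particle, had 2835 and 2852 with hIMP1 Dmut and 3153 and 4037 with mock (-0.33 ± 0.19). The other probe set of PSMA7 overlapped (-0.066) and was 0.22 within number 2. Of 41 mitosis genes 34 were lower and 7 higher, with 8 below both mock arrays (19.5%, against 12% of all genes, or 13.9% under median scaling, which also left 8) and 0 above. Their median was -0.12, with -0.071 and -0.16 within numbers 1 and 2, and -0.0032 without mock replicate 2 against -0.24 without mock replicate 1. The mitotic kinase PLK1 had 392.4 and 235 with hIMP1 Dmut and 450.5 and 594 with mock (-0.75 ± 0.26). AURKB, the kinase of the chromosomal passenger complex, had 526 and 440.1 with hIMP1 Dmut and 559.9 and 1048 with mock (-0.66 ± 0.32), with nearly all of the difference within number 2 (-1.24, against -0.089 within number 1). Of 40 genes of DNA replication 20 were higher and 20 lower. Of 23 oxidative and metal stress genes 14 were lower and 9 higher, and 7 lay below both mock arrays (30.4%, against 12% of all genes) and 1 above (against 11.2%), with a median of -0.11, which was -0.041 without mock replicate 2 and -0.25 without mock replicate 1. MT1G had 166 and 142 with hIMP1 Dmut and 266 and 209.7 with mock. The pentose phosphate enzyme PGD (-0.35 ± 0.17) and the mitochondrial peroxiredoxin PRDX3 (-0.27 ± 0.17) were lower within both numbers.

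Cytosolic ribosomal protein genes gave no steady direction. Of 45, 43 were lower in the mean, but 38 were higher within number 1 and 1 within number 2, with medians of 0.14 and -0.30. Summed intensities were 606083 and 578229 with hIMP1 Dmut and 552847 and 719190 with mock, so that mock replicate 2 was the highest array. Without it the median was 0.10, and the sign also turned under cyclic loess scaling, where the median was 0.013.

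**Figure D5:**
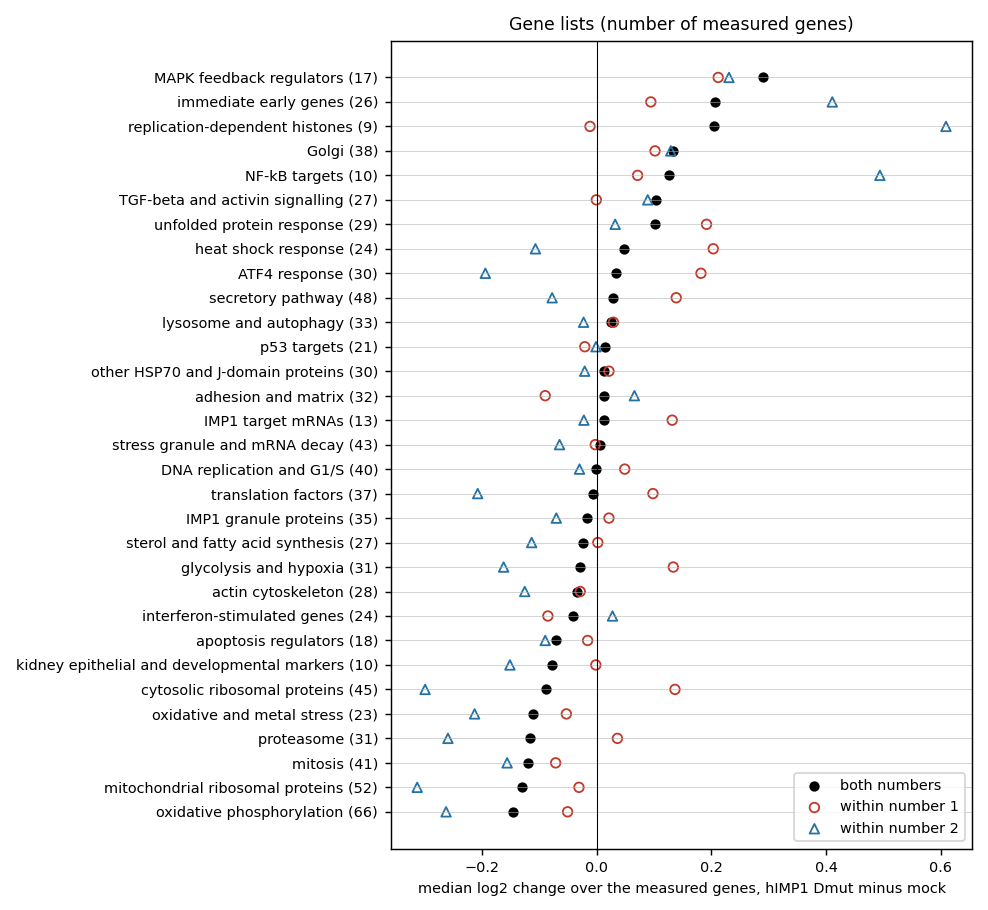
Median log2 change, hIMP1 Dmut minus mock (horizontal), over the measured genes of 31 lists, for both numbers (black point), within number 1 (circle) and within number 2 (triangle), with the number of measured genes in brackets. Lists of the Golgi, oxidative phosphorylation and mitosis kept their side of 0 within both numbers, while the cytosolic ribosomal proteins did not.

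Transcripts known to be bound by IMP1, and the proteins found in its granules, stayed near mock. Of 13 measured target mRNAs 7 were higher and 6 lower, 0 were called, and the median was 0.012. ACTB, whose zipcode gave the IMP family its first known role in chicken cells, had 13338 and 11145 with hIMP1 Dmut and 12062 and 14318 with mock (-0.11 ± 0.18). MYC had 1636 and 2429 with hIMP1 Dmut and 1413 and 2646 with mock (0.044 ± 0.30). CD44 had 44.1 and 36.1 with hIMP1 Dmut and 49.2 and 33.4 with mock (-0.022 ± 0.37). In all 3 the groups overlapped. FMR1, the fragile X protein gene, was the 1 target above both mock arrays (7.69%, against 11.2% of all genes). Its change was 0.14 ± 0.17, and its other probe set gave -0.028. Of 35 genes for granule proteins 15 were higher and 20 lower, with 4 apart in each direction, close to the shares of all genes (11.2% above and 12% below), and a median of -0.016. FXR2, a relative of FMR1, was higher (0.29 ± 0.20), and the helicase DDX1 was lower (-0.26 ± 0.18). Of 43 genes of stress granules and mRNA decay 22 were higher and 21 lower. PATL1, a decapping activator, had 172 and 262 with hIMP1 Dmut and 322 and 364 with mock (-0.67 ± 0.28), and its 3 other probe sets gave between -0.46 and -0.14, with groups that overlapped and changes of 0.22 to 0.32 within number 1.

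Set against hIMP1 wt, hIMP1 Dmut gave 0 probe sets past the threshold (0% of 27307; limma, smallest adjusted p = 1), and 337 had an unadjusted p under 0.05. HSPA6 had 1033 and 824 with hIMP1 Dmut and 646 and 454 with hIMP1 wt, and hIMP1 Dmut minus hIMP1 wt was 0.76 ± 0.44 with a 95% interval of -0.22 to 1.74. At its second probe set the values were 582 and 535 with hIMP1 Dmut and 355 and 229 with hIMP1 wt, a difference of 0.94 ± 0.35 with an interval of 0.18 to 1.71 (limma, unadjusted p = 0.021, adjusted p = 1). The hIMP1 Dmut arrays were thus above the hIMP1 wt arrays at both probe sets, and the interval excluded 0 only at the second. For DNAJB1, with 1043 and 884 on the hIMP1 Dmut arrays and 771 and 714 on the hIMP1 wt arrays, that difference was 0.37 ± 0.18 with an interval of -0.034 to 0.77, so a like level and a higher one with hIMP1 Dmut are both within it. At the brightest probe set of each, the named genes with an unadjusted p under 0.05 in this contrast were STIP1 (-0.52 ± 0.17), STPG3 (-0.99 ± 0.33), RILPL1 (-0.67 ± 0.24), CENPM (-0.59 ± 0.22), HOXC10 (-0.56 ± 0.23) and NKX6-3 (0.89 ± 0.38, against -0.20 ± 0.44 at its other probe set). Over all 12269 genes 124 were under that value. The named genes were chosen by their difference from mock on the same hIMP1 Dmut arrays, so their p-values here lean towards small values and are no separate evidence. Changes from mock in hIMP1 wt use the same mock arrays. They were 4.69 for HSPA6, 0.54 for DNAJB1, 1.22 for INHBB, 0.75 for DNAJB9 and -0.49 for DDX39A. At the second probe set of HSPA6 the change in hIMP1 wt was 4.18, which also passed the threshold (limma, adjusted p = 0.0071).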

How the data were processed

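Total RNA of 6 samples was measured on 1-colour oligonucleotide arrays. Per probe set, the authors deposited a linear intensity, and the summarisation software is not given in the sources used here. The trimmed mean, with 2% removed at each end, is 150.02 on every array. Groups come from the descriptions and replicate numbers from the titles. The 62 control probe sets were left out, and of 54613 others the 27307 with a mean log2 at or above the median (5.19) were kept. All 6 arrays entered limma 3.58.1 (R 4.3.3; lmFit, eBayes with an intensity trend) as log2(intensity + 9.04), without further scaling, with 3 residual degrees of freedom and 7.03 from the prior. The tests are two-sided, p-values are Benjamini-Hochberg adjusted across all kept probe sets, and the threshold is 0.05. A gene is its brightest kept probe set with 1 symbol in the platform annotation (12269 genes). The fit was tested on simulated data.

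Named genes are those called, the 10 per direction with the largest smaller change within a number among genes whose groups do not overlap, the same among probe sets at or above the 75th percentile, up to 8 genes with every kept probe set apart, the IMP family, and up to 6 members of each described list by moderated statistic, of which the text gives some. The comparison and the gene lists were chosen with earlier results of these data known. Alternatives were 3 other scalings, 2 other offsets, 2 other filters, other variance priors, the 4 arrays alone, the replicate number as a block, and each array left out in turn. Precision is limited by having 2 arrays per group.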

Additional observations from a re-analysis of the deposited data

How the results depend on the processing

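The number of probe sets called higher was 2, and 0 were called lower. It was 1 with only probe sets above the 75th percentile (limma, 107 with an unadjusted p under 0.05), 0 without an intensity trend (589 with an unadjusted p under 0.05), and between 0 and 2 with each array left out, at 0 without hIMP1 Dmut replicate 1 (638 with an unadjusted p under 0.05) or replicate 2 (471). Without the trend the log2 change of HSPA6 was 5.45 (adjusted p = 0.153) and 5.13 (0.0502) at its 2 probe sets, and with each array left out it lay between 4.63 and 6.27 and between 4.65 and 5.61. At the brighter one it was 5.29 without hIMP1 Dmut replicate 1 and 5.61 without replicate 2, and at the other 5.07 and 5.19. The cause was not tested. Genes whose groups did not overlap numbered 760 higher and 912 lower with the 75th percentile filter and 2685 and 2563 with no filter, as fewer or more genes were tested. With median scaling there were 897 higher and 1705 lower.

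Of 1087 values of 66 genes and probe sets under these alternatives 26 changed sign, all of them uncalled IMP family or target genes. The other genes followed were named because their groups did not overlap. Leaving out 1 array or changing the offset therefore cannot turn their sign, so their unchanged sign there is no test of them. Under median scaling the genes that changed sign were BTRC (-0.021), CTNNB1 (-0.013), IGF2BP1 (-0.016), MDM2 (-0.059) and MYC (-0.028), and under quantile scaling PABPC1 (0.016). With each array left out the change lay between -0.081 and 0.46 for ABCB1, between -0.24 and 0.021 for ACTB, between -0.21 and 0.31 for BTRC, between -0.25 and 0.21 for CD44, between -0.021 and 0.14 for CTNNB1, between -0.14 and 0.089 for HMGA2, between -0.15 and 0.25 for IGF2BP1, between -0.30 and 0.22 for LIN28B, between -0.19 and 0.21 for MDM2, between -0.41 and 0.49 for MYC, between -0.33 and 0.16 for PABPC1 and between -0.17 and 0.99 for SEMA3A. Of 370 list medians 62 changed sign.

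With the replicate number as a block the calls were 2 higher and 0 lower, with 1134 probe sets at an unadjusted p under 0.05. The labels do not tie equal numbers to a shared batch. Deviations from the group means correlated at 0.20 between hIMP1 Dmut and mock arrays of the same number. For hIMP1 wt arrays this correlation was 0.46 with mock and 0.22 with hIMP1 Dmut. No detection calls were used here, so how far dim probe sets lie above background is unknown.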

Other observations

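Several lists not described above held a few genes whose groups did not overlap, none of them called. Of 33 lysosome and autophagy genes 3 lay above both mock arrays and 4 below (9.09% and 12.1%). For adhesion and matrix these counts were 2 and 1 of 32 (6.25% and 3.125%), and for TGF-beta and activin signalling 4 and 3 of 27 (14.8% and 11.1%). The shares of all genes were 11.2% above and 12% below. WIPI1, a phosphoinositide-binding protein of autophagosome formation, had 84.6 and 85.9 with hIMP1 Dmut and 50.4 and 54.2 with mock (0.62 ± 0.31), and its other probe set was near 0 (0.024). COL5A1, a fibrillar collagen, had 46.7 and 59.7 with hIMP1 Dmut and 29.2 and 27.8 with mock (0.72 ± 0.34). The activin type I receptor ACVR1 had 224 and 236 with hIMP1 Dmut and 179 and 165 with mock (0.40 ± 0.21). In the list of TGF-beta and activin signalling, which also holds INHBB, 16 genes were higher and 11 lower of 27.

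MVD, an enzyme of the mevalonate pathway, had 47.6 and 2.88 with hIMP1 Dmut and 56.7 and 47.8 with mock (-1.23 ± 0.62), with 1 very dim array in the hIMP1 Dmut group. Sterol and fatty acid genes as a list had 11 higher and 16 lower of 27. BAX, a pro-apoptotic gene induced by p53, had 378 and 454 with hIMP1 Dmut and 399 and 108 with mock (0.96 ± 0.45), where mock replicate 2 is the array that differs. Its second probe set gave the same pattern, at 377 and 490.5 with hIMP1 Dmut and 429.6 and 95.9 with mock. Of 21 p53 targets 13 lay above mock and 8 below, and the median was 0.014.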
